A study of Mus musculus with 4 samples.

Results

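The genes S100a8, S100a9, Hp, Ctsg, Elane, Mpo, Ltf, Lcn2, Ngp and Padi4 are known from neutrophils and were followed through 4 cultures of mouse bone marrow-derived dendritic cells (BMDC). Members were all probe sets that the array annotation assigns to these symbols, and each gene had a single probe set, so 10 of the 34945 probe sets assigned to 1 gene, and 10 of 18193 genes, were described. BMDC of male C57BL/6 mice aged 6 to 8 weeks were grown for 7 days with 500 U/ml GM-CSF, and every sample was stained with anti-CD80 and sorted by flow cytometry before its RNA was taken. The control was BMDC not exposed to tumour cells. The live coculture held 1D8 cells, a line from mouse ovarian surface epithelium used as the tumour cell, at 1 tumour cell to 5 BMDC. The irradiated coculture held 1D8 cells given 50 Gy, at the same ratio to BMDC. The conditioned medium culture held 25% (v/v) 1D8 supernatant and no tumour cells. Each condition was 1 biological sample on 1 array, and whether marrow of several mice was pooled is not given in the sources used here.

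With 1 array per condition there was no replicate error and no test. Higher and lower describe these 4 arrays. Values are MAS5 signals, the linear brightness that Affymetrix software gives a probe set. Signals under a floor of 44.3, the median of all signals that are not array controls, were raised to it before a ratio was taken, so a ratio against a signal under the floor is a lower bound and is written "at least". A gene was counted at 2-fold. Judged from pairs of probe sets of the same gene, each above the floor on both arrays, the log2 ratio to the control had an SD of 0.39 to 0.43. This is a factor of 1.31 to 1.35. Between the 3 treated arrays the SD was 0.22 to 0.24. Both probe sets of a pair read the same RNA on the same arrays. The SD therefore measures how far probe sets disagree, and leaves out variation between cultures, sorts, mice and hybridisations.

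Neutrophils build their granules in order as they mature in the marrow. Primary granules, made at the promyelocyte stage, hold myeloperoxidase (Mpo) and the serine proteases neutrophil elastase (Elane) and cathepsin G (Ctsg). Secondary granules follow with lactoferrin (Ltf), lipocalin 2 (Lcn2), neutrophilic granule protein (Ngp) and haptoglobin (Hp). The calgranulins S100a8 and S100a9 are calcium-binding proteins of the cytosol that pair to form calprotectin. Padi4 is not a granule protein: it is a peptidylarginine deiminase that converts arginine of histones to citrulline and takes part in the formation of neutrophil extracellular traps. Bone marrow cultures with GM-CSF can hold granulocytes and their precursors besides dendritic cells.

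The promoters below are those of the calgranulin pair, whose members differed from each other, of 3 granule genes that were lower, and of Padi4, the gene that was higher. They are the 250 bases before the RefSeq start of each gene on build GRCm38.p6, written 5′ to 3′ on the strand of the gene. Capitals mark the letters TTNNGNAA, a core of sites for C/EBP factors, and GAGGAA, a core of sites for PU.1, both read on either strand. These factors are known to drive myeloid and granulocyte genes.
S100a8, chr3:90668821-90669070, plus strand: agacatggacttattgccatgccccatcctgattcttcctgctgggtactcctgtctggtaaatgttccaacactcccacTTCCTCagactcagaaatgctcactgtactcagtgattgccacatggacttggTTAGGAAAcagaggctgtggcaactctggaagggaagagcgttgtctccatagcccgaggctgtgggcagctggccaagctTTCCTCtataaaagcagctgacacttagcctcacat
S100a9, chr3:90695722-90695971, minus strand: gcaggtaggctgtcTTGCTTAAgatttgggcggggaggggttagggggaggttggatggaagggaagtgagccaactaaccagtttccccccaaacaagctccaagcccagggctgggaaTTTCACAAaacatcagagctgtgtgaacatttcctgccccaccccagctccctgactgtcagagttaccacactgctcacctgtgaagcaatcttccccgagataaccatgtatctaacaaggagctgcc
Ngp, chr9:110419558-110419807, plus strand: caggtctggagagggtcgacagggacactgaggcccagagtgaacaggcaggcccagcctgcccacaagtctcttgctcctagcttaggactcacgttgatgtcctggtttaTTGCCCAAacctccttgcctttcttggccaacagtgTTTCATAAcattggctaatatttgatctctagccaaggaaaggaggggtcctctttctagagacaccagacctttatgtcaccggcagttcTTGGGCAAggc
Elane, chr10:79886062-79886311, plus strand: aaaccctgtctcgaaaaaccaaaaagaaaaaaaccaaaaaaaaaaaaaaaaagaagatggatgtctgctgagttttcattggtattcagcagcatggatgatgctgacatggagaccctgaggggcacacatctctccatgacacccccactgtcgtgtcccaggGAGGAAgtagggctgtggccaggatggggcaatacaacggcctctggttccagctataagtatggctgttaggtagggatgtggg
Ctsg, chr14:56102575-56102824, minus strand: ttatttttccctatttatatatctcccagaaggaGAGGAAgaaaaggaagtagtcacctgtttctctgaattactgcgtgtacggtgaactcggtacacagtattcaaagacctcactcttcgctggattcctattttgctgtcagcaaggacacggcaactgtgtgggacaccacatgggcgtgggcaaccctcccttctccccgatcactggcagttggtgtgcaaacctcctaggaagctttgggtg
Padi4, chr4:140774204-140774453, minus strand: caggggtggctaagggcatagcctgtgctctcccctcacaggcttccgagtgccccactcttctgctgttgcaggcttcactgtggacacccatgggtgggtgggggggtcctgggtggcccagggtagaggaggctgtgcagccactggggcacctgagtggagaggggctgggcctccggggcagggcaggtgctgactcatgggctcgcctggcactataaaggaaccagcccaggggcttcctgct

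The promoter table held 9 of the 10 genes, all but Hp, and 17 matches fell in these 9 promoters with 0 overlaps between matches. The C/EBP letters were found in 5 of 9, those of S100a8, S100a9, Ngp, Ltf and Lcn2, against 36.8% of all 32851 promoters of this length. The PU.1 letters were found in 6 of 9, those of S100a8, Ltf, Lcn2, Elane, Mpo and Ctsg, against 23.3% of all promoters. A core of NF-kB sites was found in 0 of 9, against 17.6% of all promoters. All 3 primary granule promoters held the PU.1 letters and none of them the C/EBP letters, all 3 secondary granule promoters of the table held the C/EBP letters, and the Padi4 window held none of the 3 motifs. A match is a string of letters and not a measured binding site.

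The 10 genes were above the floor on the control array without exception, and most stood lower on the treated arrays. With live 1D8 cells 6 of 10 were at least 2-fold lower than in the control (S100a9, Hp, Ctsg, Elane, Ngp and Lcn2), where 2.23% of all genes were. With irradiated 1D8 cells 6 of 10 were lower (S100a9, Hp, Ctsg, Elane, Ngp and Mpo), where 2.25% of all genes were. In conditioned medium 5 of 10 were lower (S100a9, Hp, Ctsg, Ngp and S100a8), where 1.41% of all genes were. Padi4 alone of the 10 was higher, in each of the 3 comparisons, where 3.36%, 3.47% and 2.30% of all genes were higher in the same order. With signals under the floor set to it, the median log2 ratio of the 10 genes was -1.43 with live 1D8 cells, -1.50 with irradiated 1D8 cells and -0.82 in conditioned medium, and the median of all genes was 0 in each. With the floor raised to 155.6, the 75th percentile, S100a9, Ctsg, Elane, Mpo and Lcn2 no longer passed 2-fold, which left 2, 2 and 3 of the 10 lower. The shares of all genes were then 1.34%, 1.28% and 0.753%. The loss of these members was fixed in advance, as their control signals lie under that floor or less than 2-fold above it. It therefore does not show how far they differed. The 3 comparisons share the control array, so a high or low signal on that array enters all of them.

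**Figure D1:**
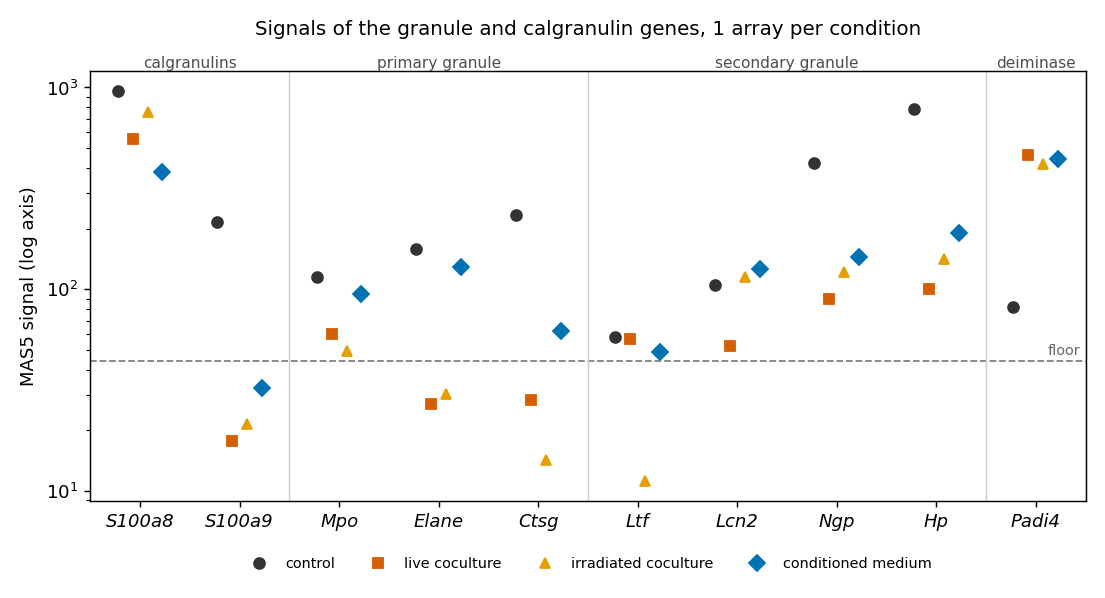
MAS5 signal on a log axis for the 10 genes, ordered by role, with 1 point for each of the 4 arrays and a dashed line at the floor of 44.3. The control point is the highest of its column for 8 of the genes, whereas for Padi4 it is the lowest and for Lcn2 it lies between the treated arrays.

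The 2 calgranulin genes differed in how far they stood below the control. S100a9 had a signal of 214.3 in the control, 17.8 with live 1D8 cells, 21.4 with irradiated 1D8 cells and 32.5 in conditioned medium. It was above the floor in the control only and was at least 4.84-fold lower on every treated array. S100a8 had 963.6, 557.2, 757.1 and 382.6, given in that order, and stayed well above the floor throughout. It was 1.73-fold lower with live 1D8 cells and 1.27-fold lower with irradiated 1D8 cells, both under the 2-fold threshold, and 2.52-fold lower in conditioned medium. Thus S100a8 was lowest in conditioned medium, where S100a9 had the highest of its 3 treated signals, all under the floor. The S100a8 probe set carries the suffix that Affymetrix gives to sets whose probes can match more than 1 transcript. The genes are direct neighbours among the protein-coding genes of chromosome 3 in assembly GRCm38.p6.

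Of the wider S100 family, 13 of 16 listed genes were measured, and the median log2 ratio was -0.07 with live 1D8 cells, 0 with irradiated 1D8 cells and -0.18 in conditioned medium. Beside the calgranulins, S100a1, a calcium-binding protein known from muscle, was the other member that passed 2-fold. It gave 2192 in the control, 879.4 with live 1D8 cells (2.49-fold lower), 963.7 with irradiated 1D8 cells (2.27-fold lower) and 1158 in conditioned medium (1.89-fold lower). S100a4 and S100a6, which many cell types express, lay between 4935 and 6386 and between 3977 and 4549. Receptors to which calgranulins, haptoglobin, lactoferrin and lipocalin 2 bind had 1 of 8 genes higher in either coculture and none lower. This was Tlr4, a receptor for S100a8 and S100a9 as well as for lipopolysaccharide. Its brightest probe set had 421.6 in the control, 947.4 and 980.4 with live and irradiated 1D8 cells and 613.5 in conditioned medium. Of its other probe sets, 1 had log2 ratios of 0.86 and 0.85 with live and irradiated 1D8 cells, 1 had 1.77 and 1.78, and 1 was under the floor. The haptoglobin receptor gene Cd163 was under the floor on all 4 arrays.

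The 3 primary granule genes were low in both cocultures, and 2 of them, Elane and Mpo, were near the control in conditioned medium. Elane, which cleaves matrix and bacterial proteins, had a signal of 158.8 in the control, 27.0 with live 1D8 cells, 30.2 with irradiated 1D8 cells and 128.5 in conditioned medium. Both coculture signals were under the floor, at least 3.58-fold below the control, while conditioned medium was 1.24-fold below it. Ctsg, a chymotrypsin-like protease, had 232.8, 28.4, 14.3 and 62.0. It was at least 5.26-fold lower in either coculture and 3.75-fold lower in conditioned medium. Mpo, which makes hypochlorous acid, had 114.4, 59.7, 49.6 and 94.4. It was 1.92-fold lower with live 1D8 cells, 2.31-fold lower with irradiated 1D8 cells and 1.21-fold lower in conditioned medium. The live coculture ratio of Mpo passed 2-fold after quantile normalization (log2 ratio -1.16) and after median centring (-1.06).

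Genes beside the primary granule genes on the chromosome did not all share their pattern. Prtn3, which encodes proteinase 3 of the same granules, lies next to Elane on chromosome 10 in GRCm38.p6. Its signal was 183.2 in the control, 213.5 with live 1D8 cells, 294.6 with irradiated 1D8 cells and 243.1 in conditioned medium, 1.17-fold to 1.61-fold above the control. Mcpt8, a basophil protease gene next to Ctsg on chromosome 14, had 385.6, 4.3, 15.5 and 201.0, at least 8.70-fold lower in either coculture. Of the 8 listed primary granule genes, 5 were measured. At the brightest probe set, 2 were lower with live 1D8 cells, 3 with irradiated 1D8 cells and 1 in conditioned medium. All of these were members described above, and none was higher. Ctsc, also on this list, had log2 ratios of 0.36 and 0.51 with live and irradiated 1D8 cells at that probe set. Other probe sets of Ctsc had 1.51 and 1.32, and 1.75 and 1.7, so no direction is given for it.

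Of the secondary granule genes, Hp and Ngp were lower on every treated array, whereas Lcn2 and Ltf were not. Hp, the haptoglobin that binds free haemoglobin, had a signal of 782.6 in the control, 100.5 with live 1D8 cells, 140.8 with irradiated 1D8 cells and 189.9 in conditioned medium. All 4 signals were above the floor, and the gene was 7.79-fold, 5.56-fold and 4.12-fold lower in that order. With live 1D8 cells 3 of the 18193 genes had a lower ratio than Hp. Ngp, a cystatin-like protein of the granules, had 421.2, 89.2, 121.7 and 145.3, which is 4.72-fold, 3.46-fold and 2.90-fold lower. For both genes the live coculture was lowest and conditioned medium the highest of the treated arrays, but Hp and Ngp differed by less than 2-fold between any 2 treated arrays.

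Lcn2, which withholds iron from bacteria by binding siderophores, had 105.6 in the control, 52.4 with live 1D8 cells, 115.7 with irradiated 1D8 cells and 126.5 in conditioned medium. The live coculture stood apart from the other 3 arrays: it was 2.02-fold below the control, close to the threshold, 2.21-fold below the irradiated coculture and 2.41-fold below conditioned medium. Ltf, an iron-binding protein, was dim throughout, with 58.1, 56.4, 11.2 and 49.1. Its signal was under the floor with irradiated 1D8 cells only, and as the other 3 lay close to the floor, no ratio of Ltf reached 2-fold. With the floor lowered to 12.9, the 25th percentile, Ltf was lower than the control with irradiated 1D8 cells (log2 ratio -2.17). At the brightest probe set, 4 of the 12 listed secondary granule genes were lower with live 1D8 cells. With irradiated 1D8 cells and in conditioned medium 2 each were lower, and none was higher on any treated array. The 4 were Hp, Ngp, Lcn2 and Mmp8, a collagenase of neutrophils, which had 5677 in the control, 2635 with live 1D8 cells (2.15-fold lower), 3102 with irradiated 1D8 cells and 6902 in conditioned medium. Camp, the cathelicidin gene, and Olfm4 were under the floor on all 4 arrays. Probe sets of Ceacam1 and Cybb, both on this list, disagreed. The 8 probe sets of Ceacam1 had log2 ratios from 0 to 2.47 with live 1D8 cells. They reached 1.81 with irradiated 1D8 cells and 1.96 in conditioned medium, against 0.24, 0.54 and 0.61 at the brightest. Cybb had -1.06 and -1.17 with live and irradiated 1D8 cells at a probe set other than its brightest. No direction is given for either gene.

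Padi4 showed the opposite direction. Its signal was 81.8 in the control, 465.2 with live 1D8 cells, 420.0 with irradiated 1D8 cells and 441.5 in conditioned medium. The 3 treated arrays lay within 1.11-fold of each other, at 5.69-fold, 5.13-fold and 5.40-fold above the control. In conditioned medium 6 of the 18193 genes had a higher ratio than Padi4, against 51 with live 1D8 cells and 68 with irradiated 1D8 cells. Padi4 lies between Padi6 and Padi3 on chromosome 4 in GRCm38.p6, and no ratio to the control reached 2-fold for the 4 other deiminase genes. Padi3 came nearest, with 50.8 in the control and 99.1 with live 1D8 cells (1.95-fold higher). Padi2, the deiminase found in most tissues, lay between 217.2 and 256.3.

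**Figure D2:**
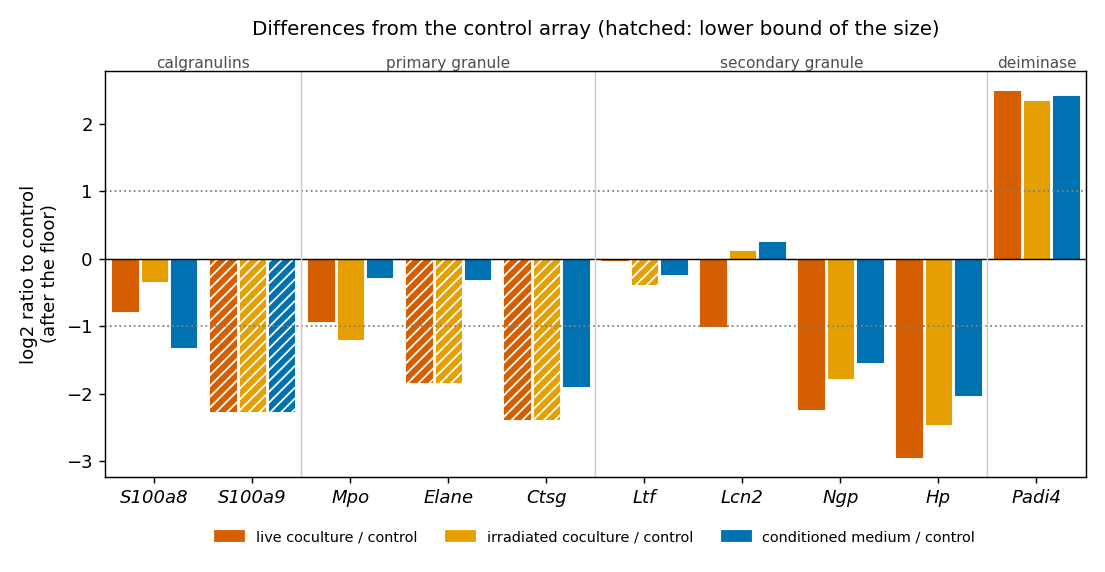
Log2 ratio to the control after the floor for the 10 genes in the 3 treated cultures, with dotted lines at 2-fold. Hatched bars are lower bounds of the size, since the treated signal was under the floor. Hp, Ngp, Ctsg and S100a9 lie below -1 in all 3 cultures, Elane in the cocultures only, and Padi4 between 2.36 and 2.51.

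**Figure D3:**
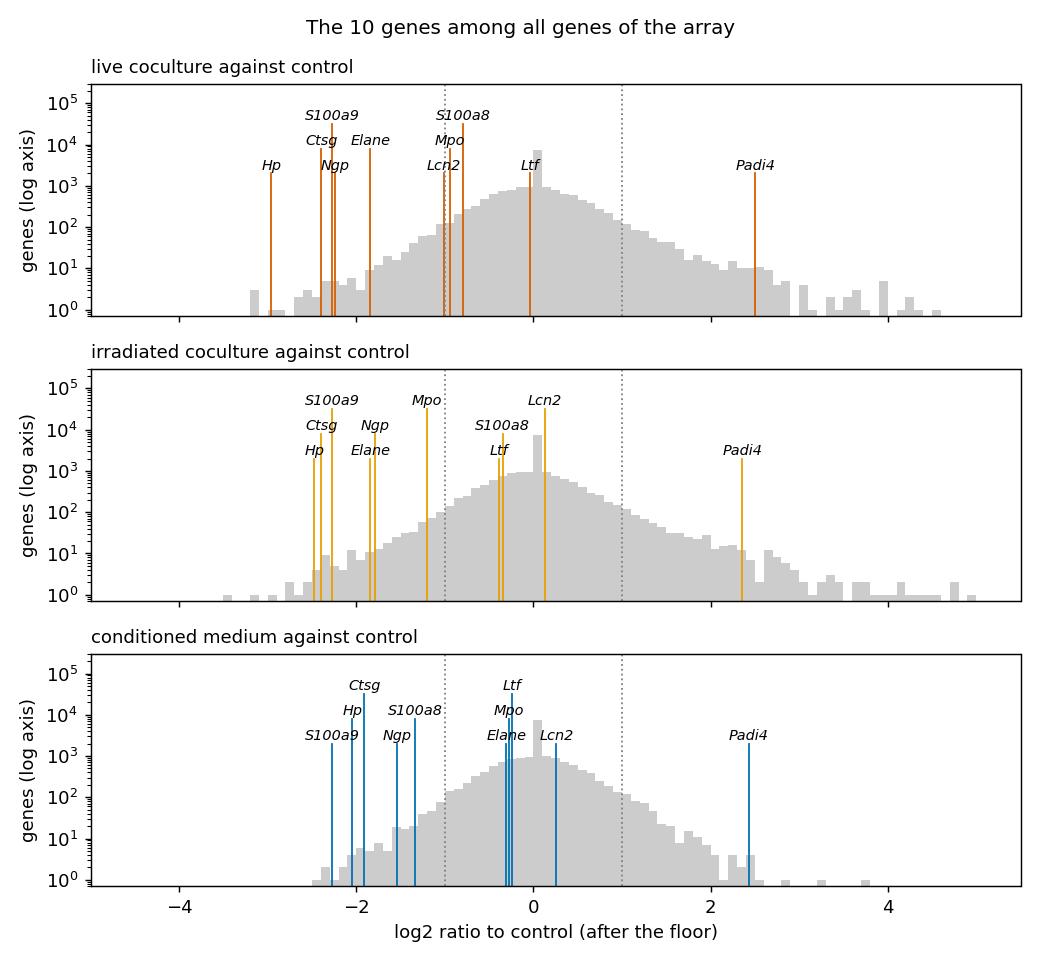
Number of genes, on a log axis, by log2 ratio to the control for all 18193 genes (grey), with the 10 genes as labelled lines and dotted lines at 2-fold; genes under the floor on both arrays form the peak at 0. Hp lies near the lower end with live 1D8 cells at -2.96, and Padi4 near the upper end in conditioned medium at 2.43.

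The treated arrays, compared with each other, differed at few of the 10 genes. Between the irradiated and the live coculture, Lcn2 was higher with irradiated 1D8 cells and none of the 10 was lower, where 0.302% and 0.368% of all genes were. In conditioned medium 2 of the 10, Elane (at least 2.90-fold) and Lcn2, were higher than with live 1D8 cells, where 1.14% of all genes were, and none was lower, where 1.75% were. Against the irradiated coculture, conditioned medium was higher for 1 of the 10, Elane (at least 2.90-fold), where 1.24% of all genes were, and lower for none, where 1.95% were. S100a8 was just under the threshold in that last comparison, 1.98-fold lower in conditioned medium, and passed it after quantile normalization (log2 ratio -1.01) and after median centring (-1.03).

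Genes of later granules and of the neutrophil surface were counted in the same way. Of 7 measured genes of tertiary granules and secretory vesicles, 4 were higher in either coculture and 2 in conditioned medium, and none was lower. Mmp9, gelatinase B, had 44.0 in the control, 280.4 with live 1D8 cells, 288.5 with irradiated 1D8 cells and 35.7 in conditioned medium, at least 6.33-fold and at least 6.51-fold higher in the cocultures. Fpr2, a receptor for formyl peptides, was 2.88-fold, 3.84-fold and 3.45-fold higher with live 1D8 cells, with irradiated 1D8 cells and in conditioned medium. Itgam, the integrin CD11b, was 2.74-fold, 3.54-fold and 2.64-fold higher. The sheddase gene Adam8 was 2.34-fold and 2.48-fold higher in the cocultures and 1.13-fold higher in conditioned medium. Macrophages and dendritic cells express several of these genes too.

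Of 7 measured neutrophil surface receptors, 3 were higher and 1 was lower in either coculture, and 2 were higher in conditioned medium. Trem1, an activating receptor of neutrophils and monocytes, had 92.8 in the control, 1260 and 1262 with live and irradiated 1D8 cells (both 13.6-fold higher) and 100.2 in conditioned medium. Trem3, its relative, was at least 5.34-fold, 5.09-fold and 2.40-fold higher, and the Fc receptor gene Fcgr4 was 2.65-fold, 3.80-fold and 2.14-fold higher, with live 1D8 cells, with irradiated 1D8 cells and in conditioned medium. The lower gene was Csf3r, the receptor for the granulocyte growth factor G-CSF, with 349.6 in the control, 131.8 with live 1D8 cells (2.65-fold lower), 126.8 with irradiated 1D8 cells (2.76-fold lower) and 287.1 in conditioned medium. Cxcr2, the chemokine receptor of mature neutrophils, was under the floor on all 4 arrays.

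Among 11 measured regulators of granulocyte formation, Cebpa, the factor that starts the granulocyte programme, was the lower one. Its signal was 2082 in the control, 858.4 with live 1D8 cells (2.43-fold lower), 827.8 with irradiated 1D8 cells (2.52-fold lower) and 1277 in conditioned medium (1.63-fold lower). Runx1 was counted as higher on all 3 treated arrays at its brightest probe set, but its 6 probe sets had log2 ratios from -1.48 to 1.27 with live 1D8 cells, so no direction is given. Cebpb was under 2-fold at its brightest probe set, with log2 ratios of 0.29 and 0.6 with live and irradiated 1D8 cells. The other probe set of Cebpb passed 2-fold there, at 1.19 and 1.55. Spi1, which encodes PU.1, lay between 1095 and 1345, and Gfi1, a repressor needed by neutrophil precursors, was under the floor on all arrays.

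**Figure D4:**
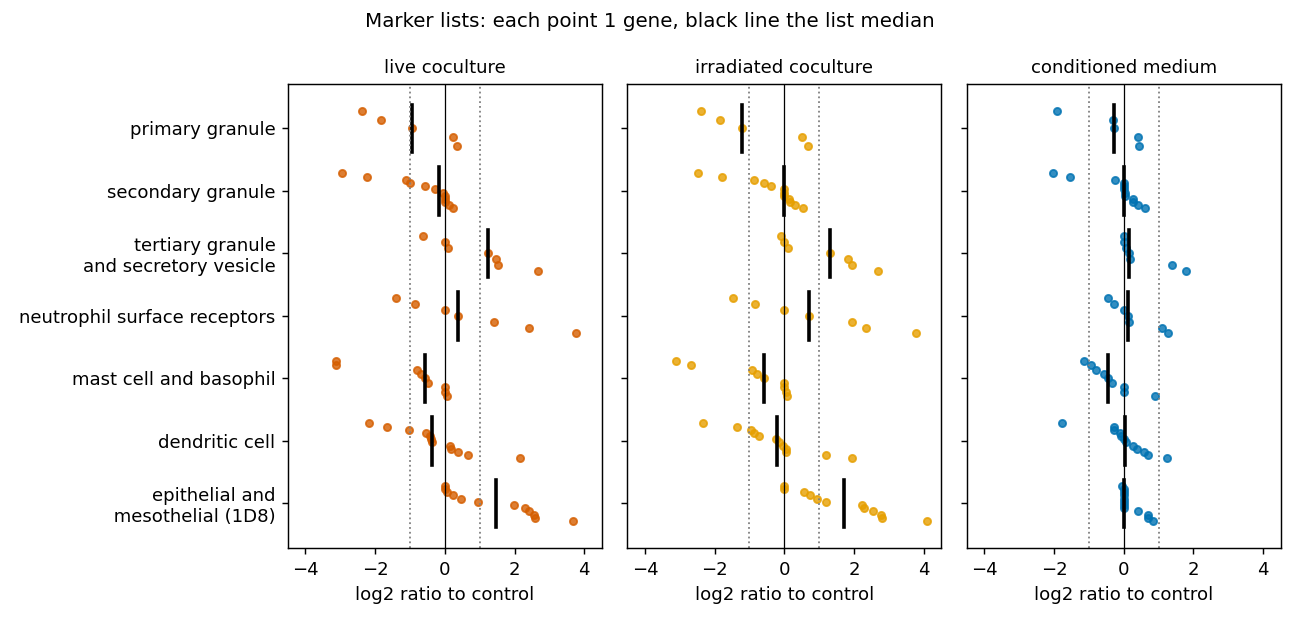
Log2 ratio to the control after the floor for the measured genes of 7 marker lists (rows) in the 3 treated cultures (panels), 1 point per gene, with a black line at the list median and dotted lines at 2-fold. Points of primary granule genes reach below -1 while tertiary granule genes reach above 1, and epithelial markers lie to the right in the cocultures, with medians of 1.47 and 1.72, but not in conditioned medium.

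Markers of other cells also moved between these samples. All 12 listed dendritic cell genes were above the floor on all 4 arrays, with 1 higher and 3 lower than the control with live 1D8 cells, 2 and 2 with irradiated 1D8 cells, and 1 and 1 in conditioned medium. Ccr7, the lymph node homing receptor of mature dendritic cells, was 4.53-fold, 5.08-fold and 3.39-fold lower with live 1D8 cells, with irradiated 1D8 cells and in conditioned medium. Cd80, whose protein was stained for the sort, was 4.42-fold, 3.81-fold and 2.35-fold higher in that order at its brightest probe set. Its other probe sets had log2 ratios from 0 to 2.51 with live 1D8 cells, from 0 to 1.95 with irradiated 1D8 cells and from 0 to 0.46 in conditioned medium. Cd86, another costimulatory gene, was 2.28-fold higher with irradiated 1D8 cells at its brightest probe set, while its other probe set had a log2 ratio of -0.20. The MHC class II gene H2-Eb1 was 3.15-fold, 2.57-fold and 1.20-fold lower. Of 12 listed genes of epithelium and mesothelium, 6 were higher with live 1D8 cells, 7 with irradiated 1D8 cells and none in conditioned medium. Their summed signal was 465.0 in the control, 2926 and 3571 with live and irradiated 1D8 cells and 807.7 in conditioned medium, and Krt19, a keratin, was under the floor in the control and conditioned medium at 8.6 and 22.2 and at 569.7 and 767.4 in the cocultures. Of 9 mast cell and basophil markers, 2 were lower in either coculture, Cpa3 and Mcpt8, and the list summed to 1466 in the control, 347.0 and 432.3 with live and irradiated 1D8 cells and 947.6 in conditioned medium. Of 8 measured genes of myeloid progenitors and the cell cycle, 1 was lower with live 1D8 cells and none was 2-fold apart with irradiated 1D8 cells, while 1 was higher and 1 lower in conditioned medium, and the medians of the log2 ratios were 0.37, 0.04 and 0.74. Ms4a3, known from granulocyte and monocyte progenitors, had 165.1 in the control, 72.6 with live 1D8 cells (2.27-fold lower) and 86.6 and 86.5 with irradiated 1D8 cells and in conditioned medium. In conditioned medium Top2a, a topoisomerase of dividing cells, was 2.06-fold higher, the stem and progenitor marker Cd34 1.98-fold and the proliferation marker Mki67 1.76-fold higher, both under the threshold, and Kit, the receptor for stem cell factor, was at least 2.22-fold lower. The 3′ over 5′ signal of the Actb control probe sets, a sign of RNA integrity, was 1.30 in the control and 1.12 to 1.20 on the treated arrays. The part of these differences in the signals of the 10 genes was not tested. Fewer cells of a type and less RNA per cell cannot be told apart in such samples.

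For each of the 9 members that spanned at least 2-fold over the 4 arrays, the 3 genes with the most similar profile were sought among 11781 genes, by the root mean square difference of floored log2 signals after each gene's mean was subtracted. The measure rests on 4 arrays and is a description. All signals under the floor count as equal in it. This covers S100a9 on all 3 treated arrays and Ctsg and Elane in both cocultures, where any other gene under the floor matches them. The nearest genes are also not particular to a member: within the same set distance lay 467 genes for Mpo and 120 for S100a8, against 6 for Hp. Ctsg was most like Rragd (0.035), Ccr7 (0.083) and Ms4a7 (0.123), and Hp was most like the chemokine gene Ccl22 (0.136), Tusc1 (0.146) and Tns1 (0.196). Ngp also had Tns1 nearest (0.101), followed by Slc30a1 and Pih1d1, and S100a9 had Bex1 (0.054), Mamdc2 and Fstl1. Elane was most like Fcmr (0.056), Kynu and Tmem50b, and Mpo like Ptpro (0.029), Nostrin and Blk. S100a8 was most like Cadm1 (0.034), B3glct and Ercc4, Lcn2 like Pou5f2 (0.057), Zbp1 and Plxdc2, and Padi4 like Gatm (0.088), Fabp7 and Hic1. Among the members themselves, Ctsg was the nearest to S100a9 (0.20), Hp (0.22) and Ngp (0.23), whereas the nearest member to Padi4 was Ltf at 1.15.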

How the data were processed

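RNA of 4 BMDC samples, 1 per condition, was hybridised to Affymetrix mouse arrays. Per the submitters' processing notes, the authors made 1 linear signal intensity per probe set with GCOS 1.4 and MAS5. The scaling target is not given in the sources used here. The deposited intensities had trimmed means (2% cut at each end) of 148.9 to 149.4, and the scaling was kept. Because MAS5 takes mismatch signal away from the match signal, dim probe sets give noisy ratios. After 64 control probe sets were left out of 45101, 34945 had 1 gene, 932 several and 9160 none in the annotation, and only the first were used. Symbols were matched to RefSeq GRCm38.p6 through Entrez identifiers for 34741 probe sets. The brightest probe set by mean log2 signal represented a gene. Log2 ratios were taken after the floor (50th percentile, 44.3) with Python 3.11.15, pandas 2.3.3 and numpy 2.4.6. The steps were tested on simulated data. Changes were simulated only in genes well above the floor, so the test did not cover changes in dim genes.

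The members and gene lists were chosen with earlier results of these data known, so their counts are not independent evidence of a direction. Named were all members, up to 4 genes of a list that were at least 2-fold apart, genes that check the identity of the cells, and the 3 most similar genes per member. Some genes named for contrast (S100a4, S100a6, Spi1, Padi2, Padi3, Prtn3) or for probe sets that disagreed (Ctsc, Ceacam1, Cebpb) were chosen after their values were seen. The number of arrays limits the precision.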

Additional observations from a re-analysis of the deposited data

How the results depend on the processing

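Alternatives tried were a lower floor (25th percentile, 12.9), a higher floor (75th percentile, 155.6), quantile normalization, median centring and the mean over probe sets. The last leaves the 10 genes as they are, since each has 1 probe set. No ratio of the 10 genes that passed 2-fold changed sign under these alternatives. With the higher floor, 2 members in place of 6 were lower than the control with live 1D8 cells, where 1.34% of all genes were. The counts were 2 in place of 6 with irradiated 1D8 cells (1.28% of all genes) and 3 in place of 5 in conditioned medium (0.753%). Of the 10 control signals, 4 (Mpo, Ltf, Lcn2 and Padi4) lie under that floor. Those of S100a9, Ctsg and Elane lie less than 2-fold above it. None of these genes could be counted as lower there. Hp, Ngp and, in conditioned medium, S100a8 passed 2-fold there, and Padi4 was higher in each. The differences between treated arrays at Elane and Lcn2 then fell to 0 (0 members higher in place of 1, 2 and 1). All treated signals of both genes lie under that floor. The shares of all genes higher in these comparisons were 0.0715%, 0.484% and 0.478%. With the lower floor, Ltf was at least 2-fold lower with irradiated 1D8 cells than in the control (7 members in place of 6). The share of all genes there was 4.49% in place of 2.25%. Ctsg was higher in conditioned medium than with live 1D8 cells (log2 ratio 1.13, 3 members in place of 2). Of all genes 3.72% in place of 1.14% were. Ltf was lower with irradiated 1D8 cells than with live 1D8 cells (1 member in place of 0, 3.16% of all genes in place of 0.368%). Conditioned medium was higher than the irradiated coculture for 3 members in place of 1, Elane, Ctsg and Ltf (4.07% of all genes in place of 1.24%). After quantile normalization or median centring, 1 member in place of 0, S100a8, was lower in conditioned medium than with irradiated 1D8 cells. Of all genes, 2.07% and 2.13% were. Mpo was then also lower with live 1D8 cells than in the control (7 members in place of 6), where 2.65% and 3.07% of all genes were.

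Over all genes, 612 were higher and 406 lower with live 1D8 cells than in the control, against 479 and 482 after quantile normalization and 490 and 559 after centring. In conditioned medium the split was 419 and 256, against 284 and 339, and 300 and 408. Centring moved the median log2 ratio of bright probe sets with live 1D8 cells from 0.01 to -0.11. No paired analysis was possible because each group holds 1 array. Signals near the floor limit what can be said of Ltf, Mpo and Lcn2.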

Other observations

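Lists of genes that act beside the granule proteins were also counted. Of 8 measured inhibitors of serine and cysteine proteases, none was 2-fold apart on any treated array at its brightest probe set. Slpi, the secretory inhibitor of elastase and cathepsin G, had a signal of 1428 in the control, 1327 with live 1D8 cells, 1648 with irradiated 1D8 cells and 1193 in conditioned medium. The neutrophil stefins Stfa2l1 and Stfa3 were under the floor on all 4 arrays. Of 5 measured subunits of the phagocyte NADPH oxidase, which makes the superoxide that feeds the myeloperoxidase reaction, none was 2-fold apart at its brightest probe set, where Cybb had 5609 in the control, 3792 and 3737 with live and irradiated 1D8 cells and 5825 in conditioned medium. Other probe sets of these genes disagreed: 1 of Ncf1 had log2 ratios of 1.65, 1.57 and 1.56 with live 1D8 cells, with irradiated 1D8 cells and in conditioned medium, and 1 of Cybb had -1.06 and -1.17 with live and irradiated 1D8 cells, so no direction is given for either gene.

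Of 10 acute phase genes 3 exceeded the floor on each array. Beside Hp and Lcn2 this was Saa3, an acute phase protein of macrophages, with 1667 in the control, 877.1 with live 1D8 cells, 2052 with irradiated 1D8 cells and 1483 in conditioned medium. Like Lcn2, Saa3 was lowest with live 1D8 cells. The ratio of Saa3 to the control stayed under 2-fold on each treated array. Chil3, a chitinase-like protein of secondary granules and of alternatively activated macrophages, had 1704, 1415, 2123 and 2261 in the same order.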
